A study of Homo sapiens with 9 samples.

Results

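The contacts of the DCBLD2 promoter were followed across 500 kb on either side of its transcription start site in HCT-116 cells, an established human colorectal carcinoma line. DCBLD2 lies on the minus strand of chromosome 3 (hg38, chr3:98795941-98901695), spans 105.755 kb and has 16 exons in the annotated canonical transcript. Contacts were measured with Capture-C, in which chromatin is cut with DpnII (recognition sequence GATC), neighbouring ends are ligated, and ligation products of a chosen promoter fragment, the viewpoint, are enriched and sequenced. Members were chosen by position alone: all 2217 DpnII fragments of the DCBLD2 table with a midpoint within 500 kb of the start site, of 47184 such fragments at the 20 viewpoints of the series. The median fragment was 315 bp long. Of the 2217 fragments, 2169 had an interaction in at least 1 library, 909 had one in all 9 libraries, and 48 had none.

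The libraries fall into 3 groups of 3 replicates, and all come from MED14-dTAG cells, in which the Mediator subunit MED14 carries a tag that lets the dTAG ligand direct it to degradation. The dTAG+I-BET cells received dTAG ligand for 2 h (0.5 μM) and the BET inhibitor I-BET 151 for 90 min (1 μM), the dTAG cells received the ligand alone for 2 h, and the DMSO cells received the solvent. DMSO cells therefore carry the tagged MED14 as well, and no untagged cells were compared here. No library received I-BET without dTAG ligand, so that the effect of I-BET in cells with intact Mediator cannot be read from these groups. Capture-C does not measure MED14, and its loss cannot be checked in these libraries. The study describes the replicates as biologically independent; where this did not hold, the p-values would measure only the spread between these samples.

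DCBLD2 encodes a transmembrane protein with CUB, LCCL and discoidin-type extracellular domains, related to the neuropilins, and it is known to modulate signaling of growth factor receptors. Mediator is a large coactivator complex that connects transcription factors at enhancers with RNA polymerase II at promoters, and MED14 is its central scaffold. BET proteins bind acetylated histones at active enhancers and promoters, and I-BET displaces them. Cohesin extrudes chromatin loops and is halted by CTCF bound to its motif, so that contacts of a promoter reflect enhancers, the gene itself and CTCF sites around it.

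The promoter is shown first because it is the fixed end of every contact described here. The RefSeq sequence (GRCh38.p14, chr3:98901646-98901945, minus strand, 250 bases before to 50 after the start) has 4 copies of the CCAAT box, all in the reverse orientation, marked in capitals as ATTGG.
DCBLD2 promoter: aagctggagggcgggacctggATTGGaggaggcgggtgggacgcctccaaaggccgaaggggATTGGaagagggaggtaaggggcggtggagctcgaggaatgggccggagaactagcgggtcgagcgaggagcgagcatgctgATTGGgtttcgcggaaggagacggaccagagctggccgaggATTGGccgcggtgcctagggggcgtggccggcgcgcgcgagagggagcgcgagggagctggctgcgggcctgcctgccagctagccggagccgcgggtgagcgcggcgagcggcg
Of 35116 RefSeq promoters of this length, 34.6% held CCAAT on either strand at least once and 0.991% held it 4 times or more. The DCBLD2 promoter had a GC content of 71.0% and 34 CpG dinucleotides. It contains no GATC, so that DpnII does not cut within it. No fragment was listed between chr3:98899987 and chr3:98902011, the 2025 bp that hold the viewpoint. A long non-coding RNA gene, ENSG00000239462, starts 0.35 kb from the DCBLD2 start on the other strand and ends 117 kb upstream.

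A pair of sites that lost cohesin after MED14 depletion in the study's own list, both upstream, was used as a reference of the locus. Whether they act as enhancers of DCBLD2 was not tested. The list was made with CUT&Tag of the cohesin subunit SMC1A and not with Capture-C. The site nearer to the promoter, 60.9 kb upstream, lies within ENSG00000239462, and its central 300 bases (hg38, chr3:98962427-98962726, plus strand) are shown because they hold a pair of AP-1 motifs. The capitals mark TGANTCA.
site 60.9 kb upstream: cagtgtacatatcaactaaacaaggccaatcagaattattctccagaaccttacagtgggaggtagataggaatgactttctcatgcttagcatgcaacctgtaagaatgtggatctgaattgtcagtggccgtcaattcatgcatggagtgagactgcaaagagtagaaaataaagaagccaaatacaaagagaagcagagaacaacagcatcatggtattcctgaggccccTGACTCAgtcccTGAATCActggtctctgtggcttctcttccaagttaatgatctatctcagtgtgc
TGANTCA was found in 63.9% of the 881 sites of that list, each 401 bp long. The other site, 79.6 kb upstream at the start of the long non-coding RNA gene LINC00973, held no match in its central 300 bases. No site that gained cohesin lay within 500 kb.

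The core of the CTCF motif was searched as CCANNAGNNGGC on both strands of the 98 bins of 10 kb around DCBLD2 and was found in 21 of them (21.4%), against 423 of the 1960 bins of all viewpoints (21.6%). No copy lay between 0.294 and 158 kb downstream of the start, which includes the rest of the gene body. A pair of copies in opposite orientation stood 289 kb downstream, and a further copy stood 379 kb downstream within CLDND1, near its start. Copies in opposite orientation also stood at 207 and 205 kb and at 444 and 440 kb, farther apart from each other. The copies at 289 and 379 kb are printed as 3 of the 13 copies found downstream beyond 150 kb: the pair at 289 kb, and the copy within CLDND1, whose promoter is described below. The capitals mark the core, and coordinates are those of the core.
289 kb, chr3:98612655-98612666, minus strand: agctCCACTAGGTGGCcaga
289 kb, chr3:98612817-98612828, plus strand: ccagCCAGGAGGTGGCgctt
379 kb, chr3:98522598-98522609, minus strand: aggcCCAGGAGGTGGCtgct
A match says only that these letters are present; CTCF binding was not measured here.

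Signal counts how often a fragment was ligated to the viewpoint and is given per kb of sequence. The authors' scaling gave every library a nearly equal total within the chromosome of the viewpoint. A higher share in one region therefore lowers the share elsewhere on that chromosome. Interactions with other chromosomes did not enter this total. They made up 39.6% to 40.2% in dTAG+I-BET libraries, 39.9% to 44.8% in dTAG libraries and 42.5% to 45.6% in DMSO libraries. The DCBLD2 viewpoint had 48076 to 51346 interactions in the dTAG+I-BET libraries, 44307 to 72363 in the dTAG libraries and 49999 to 77068 in the DMSO libraries. From 10 to 500 kb there were 13745 to 14274, 10038 to 19499 and 11403 to 17367 interactions in the same order of groups. dTAG replicate 3 stood apart: 33.9% of its interactions within the chromosome lay between 10 and 500 kb, against 45.3% and 45.4% in the other dTAG libraries. The dTAG+I-BET libraries had 46.1% to 47.3%, and the DMSO libraries 39.2% to 41.9%. Across the 98 bins, 2 libraries of a group correlated with Pearson r of 0.955 to 0.979 (9 pairs), and libraries of different groups with 0.939 to 0.979 (27 pairs); bins share their distance from the viewpoint.

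In DMSO-treated cells, contacts with the upstream side were high next to the viewpoint, lower at 30 to 50 kb, and high again in a block that began at 50 kb. The bin at 60 to 70 kb upstream, which holds the site with the AP-1 pair, had 2492, 2119 and 1748 signal per kb in the DMSO libraries, and the bins at 50 to 60 and 70 to 80 kb averaged 1940.4 and 1919. The bins at 30 to 40 and 40 to 50 kb, nearer to the promoter, averaged 1445 and 1429.5, and the bin at 100 to 110 kb averaged 604. These 3 bins of the block were among the 5 bins with the highest DMSO mean, together with the bins next to the viewpoint at 10 to 20 kb downstream (3109.9) and upstream (2916). Over 50 to 100 kb, the upstream side of DCBLD2 averaged 1763 ± 190 per kb (SD, n = 3), which ranked 1 of the 40 sides of all 20 viewpoints. The downstream side at the same distance averaged 521 ± 63.3 and ranked 26 of 40.

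**Figure D1:**
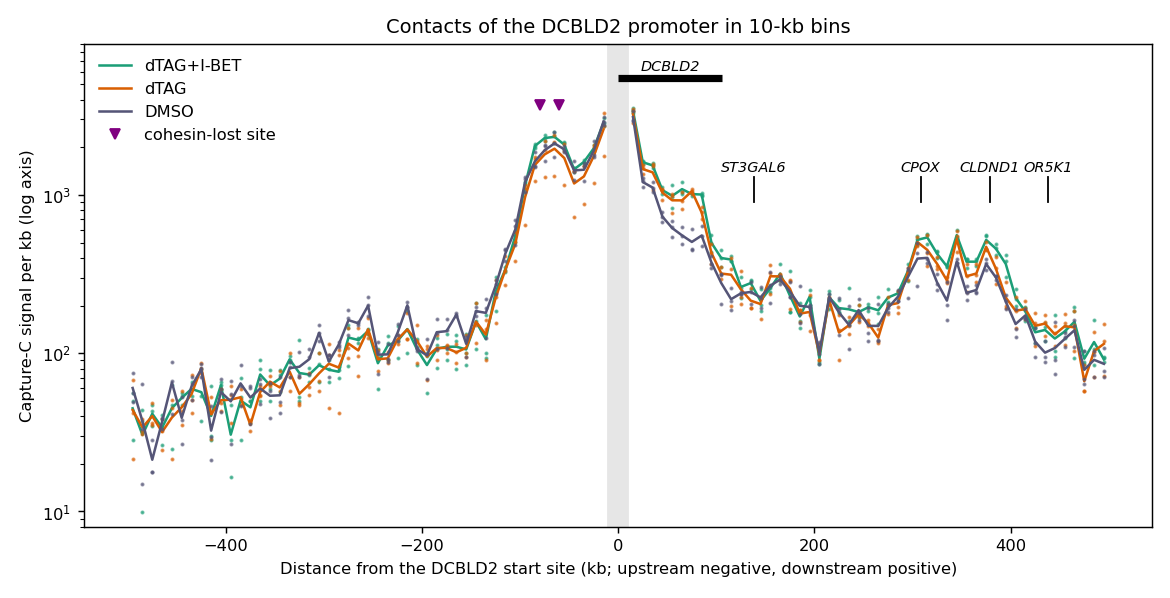
Capture-C signal per kb (y axis, log scale) in 10-kb bins against distance from the DCBLD2 start site (x axis, kb, upstream negative); points are libraries, lines group means, triangles the cohesin-lost sites, and the gray band the 10 kb left out on each side. Over the whole band from 50 to 100 kb upstream the groups overlap, although around the site 79.6 kb upstream the dTAG+I-BET libraries exceeded all others. The dTAG+I-BET and dTAG lines lie above the DMSO line within the gene body and from 300 to 400 kb downstream.

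Farther upstream the signal declined with distance, and no protein-coding promoter lies there within 500 kb. In DMSO libraries the upstream side averaged 232 per kb from 100 to 200 kb, 119.9 from 200 to 350 kb and 51.4 from 350 to 500 kb, against 241, 236 and 169 on the downstream side. On the downstream side the signal had a distant rise where the promoters of CPOX (an enzyme of heme synthesis), GPR15 (a chemoattractant receptor of lymphocytes) and CLDND1 (a claudin-related membrane protein) lie. The plot of signal by distance shows both shapes, the near upstream block and the distant downstream rise, in all 3 groups.

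MED14 depletion was followed by more contacts of the promoter with a part of its own gene body, centred 60 to 80 kb downstream. With limma over all bins of the 20 viewpoints, 2 of the 98 DCBLD2 bins were called (adjusted p under 0.05) in dTAG against DMSO, both higher and both downstream; over all viewpoints 1.17% of 1960 bins were called higher and 0.459% lower. The bin at 70 to 80 kb downstream (chr3:98821695-98831694), which holds exons 4, 5 and 6, had 1087, 1065 and 1019.9 signal per kb in dTAG cells, against 455, 449 and 611 in DMSO cells. Every dTAG library stood above every DMSO library. The log2 ratio was 1.08 ± 0.16 (SE; 95% interval 0.74 to 1.42; limma adjusted p = 0.000409). It came from many fragments: the fragment with the most signal in this bin, 601 bp long and 73.9 kb downstream, had 27, 29 and 24 interactions in dTAG libraries, against 15, 21 and 18 in DMSO libraries, out of 129 to 481 in the whole bin over the 9 libraries.

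The neighbouring bin at 60 to 70 kb downstream (chr3:98831695-98841694), within intron 3, had 1044, 919 and 811 per kb in dTAG cells, against 489.9, 551 and 626 in DMSO cells. The groups did not overlap, although dTAG replicate 3 was the lowest and DMSO replicate 3 the highest of its group. The log2 ratio was 0.73 ± 0.16 (limma adjusted p = 0.0134). This call rests on single libraries: the limma adjusted p became 0.144 when DMSO replicate 1 was left out, 0.0744 when DMSO replicate 2 was, and 0.0856 when dTAG replicate 1 was. The bin at 70 to 80 kb kept its call without any 1 of the 9 libraries, with adjusted p of at most 0.0106.

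**Figure D2:**
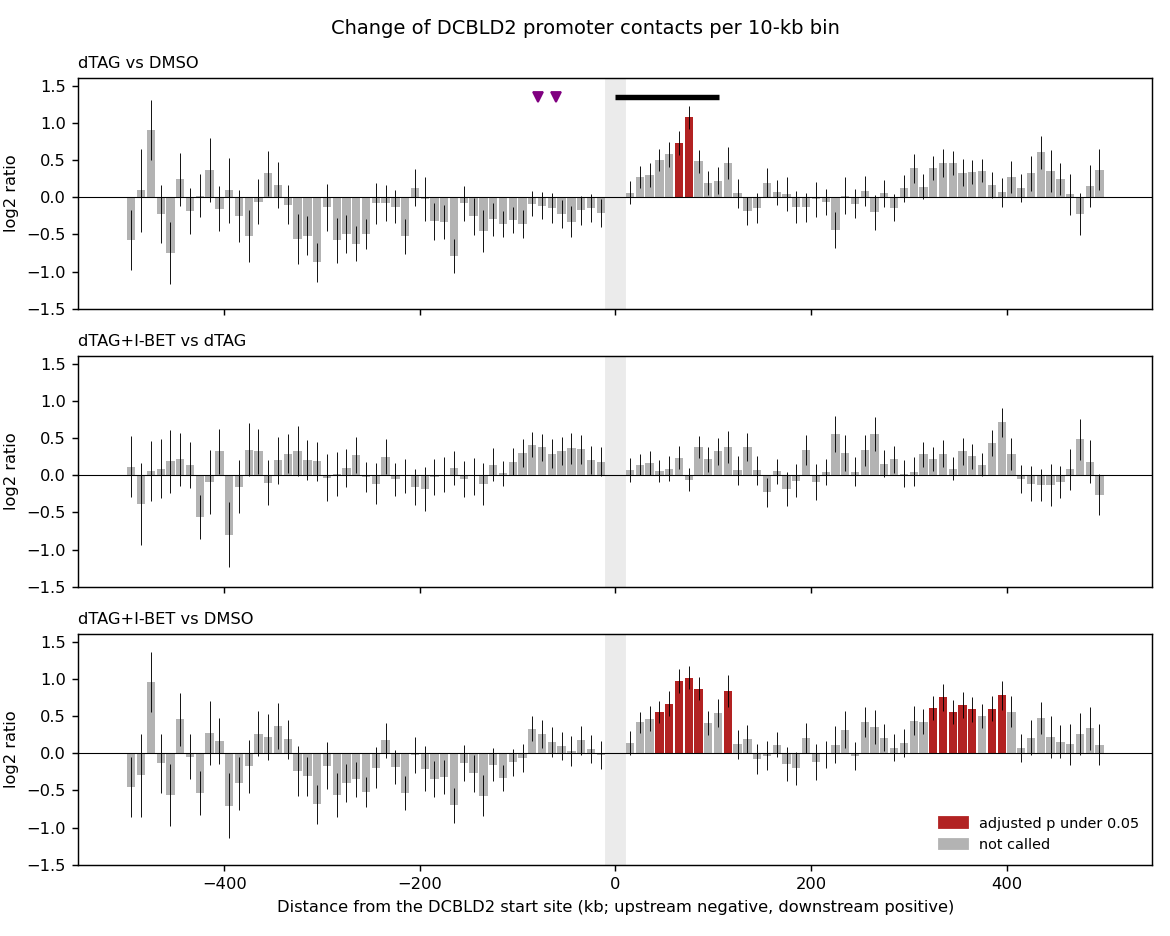
Log2 ratio of signal per kb (y axis) in 10-kb bins against distance from the DCBLD2 start site (x axis, kb) for the 3 comparisons; bars are limma estimates, whiskers SE, red bars adjusted p under 0.05, triangles cohesin-lost sites and the black line the gene. In dTAG against DMSO the 2 red bars lie at 60 to 80 kb downstream; in dTAG+I-BET against DMSO all 13 red bars are positive and downstream.

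The whole band from 50 to 100 kb downstream (chr3:98801695-98851694, exons 3 to 13 and the introns between them) followed the same course. The band includes both called bins, so that it is not a separate measurement. It had 957, 899 and 901 signal per kb in dTAG+I-BET cells, 872, 861 and 734 in dTAG cells, and 479, 490.5 and 594 in DMSO cells. All libraries with dTAG ligand lay above all DMSO libraries, and all dTAG+I-BET libraries above all dTAG libraries. dTAG exceeded DMSO by 0.66 ± 0.11 on the log2 scale (1.58-fold; limma adjusted p = 0.00405), and this was the only 1 of the 13 DCBLD2 sides, bands and gene body called in that comparison. Of the 250 tested at all viewpoints, 2.8% were called higher and 2.0% lower. The call held without any 1 library, at log2 0.60 to 0.76.

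Toward the start of the gene the difference was smaller. The band from 10 to 50 kb downstream had 1918, 1881 and 1553 per kb in dTAG cells and 1612, 1457 and 1552 in DMSO cells. The groups overlapped by a margin, through dTAG replicate 3 (log2 ratio 0.21 ± 0.11, limma adjusted p = 0.390). The gene body from 10 kb onward had 1281, 1257 and 1052 in dTAG cells, against 948, 877 and 983 in DMSO cells. These groups were apart, but the log2 ratio of 0.35 ± 0.11 missed the threshold (limma adjusted p = 0.0966; 0.00124 without dTAG replicate 3). The band from 100 to 200 kb holds exons 14 to 16 and otherwise lies beyond the end of the gene. There dTAG cells had 262, 266 and 232 per kb and DMSO cells 228, 229 and 264, which overlapped (log2 0.08 ± 0.10).

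On the upstream side, dTAG against DMSO gave values below 0 in most places and no call. Of the 49 upstream bins, 9 had a log2 ratio above 0 (median -0.21), against 38 of the 49 downstream bins (median 0.16). The median over all bins of the 20 viewpoints, with both sides pooled, was -0.07. The estimate for the whole upstream side from 10 to 500 kb was -0.21, but 0.0048 without dTAG replicate 3. The 2 groups were apart in 8 upstream bins, with dTAG the lower group in 7 and the higher in 1, and in 11 downstream bins, with dTAG the higher group in each. Over all viewpoints 10.0% of bins were apart in this way with dTAG lower, and 6.12% with dTAG higher. The lowest log2 ratios, none of them called, were -0.87 at 300 to 310 kb, -0.80 at 160 to 170 kb and -0.75 at 450 to 460 kb upstream. The highest upstream log2 ratio was 0.90, in a bin farther from the promoter than these, and it was not called either. After rescaling to equal totals from 10 to 1000 kb, the bin at 160 to 170 kb was called (-0.82), as were the bands from 100 to 200 and 200 to 350 kb upstream (-0.35 and -0.36).

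The band from 200 to 350 kb upstream had 89.7, 108 and 87.1 signal per kb in dTAG cells, against 116, 125 and 119 in DMSO cells. The highest dTAG library was below the lowest DMSO library, yet the difference of -0.34 ± 0.11 on the log2 scale was not called (limma adjusted p = 0.107). The high block from 50 to 100 kb upstream had 1902, 1768 and 1127 in dTAG cells, against 1938, 1791 and 1561 in DMSO cells. There, dTAG replicates 1 and 2 lay within the DMSO range and dTAG replicate 3 far below it. The estimate for the block was -0.17 (95% interval -0.54 to 0.20), and it was 0.06 without dTAG replicate 3.

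**Figure D3:**
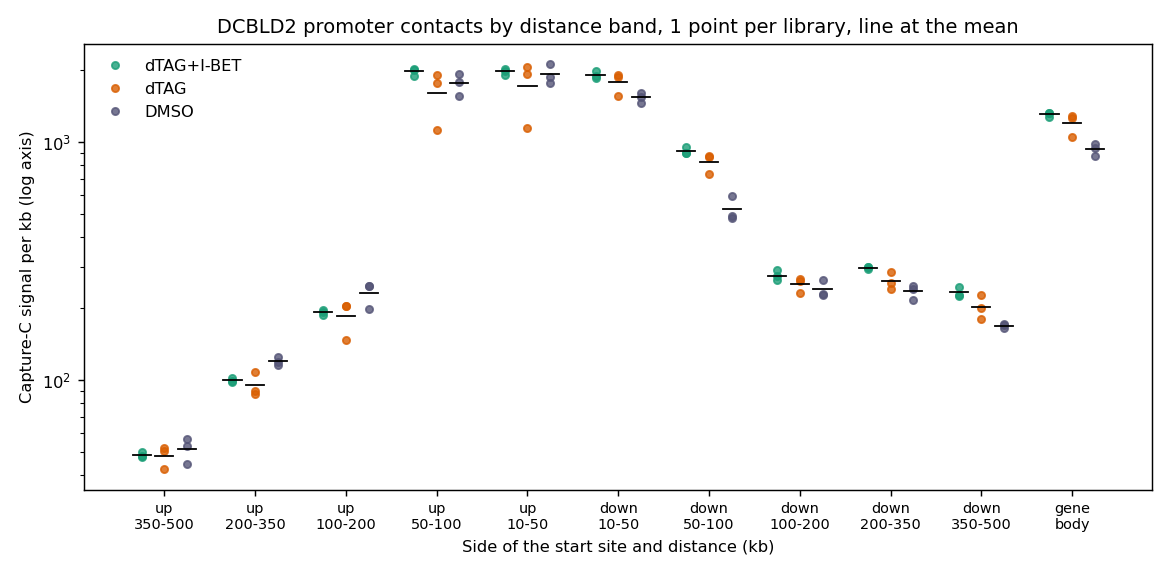
Signal per kb (y axis, log scale) in bands of distance on both sides of the DCBLD2 start site and in the gene body from 10 kb onward (x axis), with 1 point per library and a line at the group mean. At 50 to 100 kb downstream the DMSO points (479 to 594) lie below all others, and at 50 to 100 kb upstream the lowest point is dTAG replicate 3 (1127).

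A ratio of the 2 sides does not depend on how a library was scaled. The log2 ratio of upstream over downstream signal from 10 to 500 kb was -0.11, -0.04 and -0.04 in dTAG+I-BET cells, 0.02, -0.08 and -0.43 in dTAG cells, and 0.46, 0.37 and 0.10 in DMSO cells. The DMSO promoter thus contacted the upstream side more in all 3 libraries, and all libraries with dTAG ligand lay below all DMSO libraries. dTAG differed from DMSO by -0.47 ± 0.12 (limma adjusted p = 0.0140), and dTAG+I-BET from DMSO by -0.37 ± 0.12 (limma adjusted p = 0.0338). At all viewpoints 50% of 20 were called lower in dTAG and 45.0% in dTAG+I-BET, so that a fall of this ratio was common. dTAG+I-BET differed from dTAG by 0.10 (95% interval -0.18 to 0.38, limma adjusted p = 0.659), and 0.0% of the 20 were called there. The DCBLD2 value in dTAG ranked 3 from the lowest, after HMGA2 and MYC. Without dTAG replicate 3 it was -0.34 (limma adjusted p = 0.0240). The call for dTAG+I-BET was lost without either of DMSO replicates 1 and 2 or without any 1 of the dTAG+I-BET libraries (limma adjusted p = 0.0706 to 0.111).

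The cohesin-lost sites showed no called change of contact. The window of 5 kb on either side of the site 60.9 kb upstream had 2019.7, 2294 and 2474 signal per kb in dTAG+I-BET cells, 2266, 2079 and 1305 in dTAG cells, and 2267, 2069 and 1792 in DMSO cells. The 3 groups overlapped, and the spread within the dTAG group exceeded the difference between group means. The log2 ratio was -0.15 for dTAG against DMSO (95% interval -0.54 to 0.24) and 0.15 for dTAG+I-BET against DMSO (-0.24 to 0.54).

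The window at the LINC00973 start, 79.6 kb upstream, had 2722, 2741 and 2808 per kb in dTAG+I-BET cells, 2505, 2159 and 1544 in dTAG cells, and 2291, 2128 and 1798 in DMSO cells. The dTAG+I-BET libraries were above all others, while dTAG and DMSO libraries overlapped. The log2 ratio was -0.02 for dTAG against DMSO (limma adjusted p = 0.911), 0.44 for dTAG+I-BET against dTAG (limma adjusted p = 0.582) and 0.42 for dTAG+I-BET against DMSO (limma adjusted p = 0.107; it was called without dTAG replicate 3). With limma 0 of the 2 sites were called in any comparison, and at an unadjusted p under 0.05 the LINC00973 site passed in both comparisons of dTAG+I-BET and neither site in dTAG against DMSO. Over the 153 sites of all viewpoints this was so at 5.88% in dTAG+I-BET against dTAG, 30.1% in dTAG+I-BET against DMSO and 24.2% in dTAG against DMSO. After adjustment, 14.4% of the 153 were called lower in dTAG against DMSO and 0.0% higher, 11.8% lower and 4.58% higher in dTAG+I-BET against DMSO, and 0.0% in dTAG+I-BET against dTAG. edgeR called neither DCBLD2 site, and of the 153 it called 11.8%, 14.4% and 0.0% in the same order. The median log2 ratio of the 153 in dTAG against DMSO was -0.20.

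Cells with both I-BET and dTAG ligand differed from DMSO cells in bins of the downstream side. Of the 98 bins, 13 were called higher and 0 lower in dTAG+I-BET against DMSO, against 3.52% called higher and 1.33% called lower over all viewpoints. All 13 were downstream, in a near group of 6 between 40 and 120 kb and a distant group of 7 between 320 and 400 kb. At 27 of the 98 bins the unadjusted p was under 0.05, against 15.9% of all bins. The count depends on single libraries: it was 3 without DMSO replicate 1 and 3 without dTAG+I-BET replicate 1, 4 without either of the other dTAG+I-BET replicates, 5 or 7 when DMSO replicate 2 or 3 was left out, and 20 without dTAG replicate 3. It also depends on scaling. Rescaling every library to equal totals from 10 to 1000 kb shifted the DCBLD2 log2 ratios by a median of -0.19 in dTAG+I-BET against DMSO, -0.17 in dTAG+I-BET against dTAG and -0.03 in dTAG against DMSO. After it, 6 bins were called higher and 3 lower in dTAG+I-BET against DMSO: 5 bins of the near group, the bin at 390 to 400 kb, and upstream bins at 110 to 120, 160 to 170 and 250 to 260 kb (log2 -0.53, -0.90 and -0.72). With the same rescaling, dTAG against DMSO had 6 downstream bins called higher as well, and 1 upstream bin lower.

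The near group repeated the position seen with dTAG ligand alone. The bin at 70 to 80 kb downstream had 1033, 986 and 1022 signal per kb in dTAG+I-BET cells, against the DMSO values given above (log2 1.02, limma adjusted p = 0.000417). The bin at 60 to 70 kb had 1052, 1202 and 1012 (log2 0.97, limma adjusted p = 0.000774), and the bin at 80 to 90 kb, where the end of ST3GAL6 overlaps exons 7 to 10 of DCBLD2 on the other strand, had 983, 1036 and 999 (log2 0.87, limma adjusted p = 0.00169). In these 3 bins the lowest dTAG+I-BET library was above the highest DMSO library. The bins at 40 to 50, 50 to 60 and 110 to 120 kb were called at log2 0.56, 0.67 and 0.84, the last of them just beyond the end of the gene. The fit of dTAG+I-BET against DMSO shares its DMSO libraries with that of dTAG against DMSO, so that the likeness of the near values in both is not independent.

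The distant group lay beyond the pair of CTCF cores at 289 kb, and no bin that holds a printed core was called. The bins at 320 to 330, 330 to 340 and 340 to 350 kb were called at log2 0.61, 0.75 and 0.55, those at 350 to 360 and 360 to 370 kb at 0.65 and 0.59, and those at 380 to 390 and 390 to 400 kb at 0.60 and 0.78. The bin at 390 to 400 kb, within CLDND1, had 415, 383 and 301 signal per kb in dTAG+I-BET cells, 198, 284 and 193 in dTAG cells, and 233, 212 and 190.0 in DMSO cells. There the dTAG+I-BET libraries stood above all others and the dTAG and DMSO libraries overlapped. The bin at 370 to 380 kb, which holds the CTCF core within CLDND1, had 549, 455 and 556 in dTAG+I-BET cells, against 374, 334 and 392 in DMSO cells, and was not called (log2 0.50, limma adjusted p = 0.0802). In the single fragments with the most signal of the distant bins, a library had 4 to 20 interactions, so that no single fragment was compared.

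Between the near and the distant bins, from 120 to 290 kb, no bin was called, and the band from 100 to 200 kb downstream differed by 0.19 ± 0.10 (limma adjusted p = 0.290). The bands from 350 to 500 kb and 50 to 100 kb, the gene body and the whole downstream side were called. These calls share fragments: the whole side includes both bands, and the gene body includes the band from 50 to 100 kb. From 350 to 500 kb, there were 247, 229 and 225 signal per kb in dTAG+I-BET cells, against 170.1, 172 and 166 in DMSO cells, and the groups were apart (log2 0.46 ± 0.11, limma adjusted p = 0.0171). The whole downstream side had 471, 464 and 470 per kb in dTAG+I-BET cells, against 346, 342 and 368 in DMSO cells (log2 0.41 ± 0.10, limma adjusted p = 0.0227). The gene body had 1318, 1277 and 1329.6 in dTAG+I-BET cells, with the DMSO values given above (log2 0.48 ± 0.11, limma adjusted p = 0.0131). The band from 50 to 100 kb kept its call in every fit that left out 1 library. The other 3 lost it without DMSO replicate 1, DMSO replicate 2 or any 1 of the dTAG+I-BET libraries (limma adjusted p = 0.0664 to 0.115). Of all sides, bands and gene bodies, 7.2% of 250 were called higher in dTAG+I-BET against DMSO and 1.6% lower.

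Signal on the upstream side was alike in range in dTAG+I-BET and DMSO cells near the promoter, and lower from 100 to 350 kb without a call. From 350 to 500 kb the groups overlapped again (log2 -0.07, limma adjusted p = 0.843). Log2 ratios of single upstream bins ran from -0.70 to 0.95, with none called. From 10 to 500 kb, there were 436, 451 and 458 per kb in dTAG+I-BET cells and 474, 442 and 394 in DMSO cells, which overlapped (log2 0.04, 95% interval -0.30 to 0.38). From 200 to 350 kb, there were 102, 97.95 and 99.2 in dTAG+I-BET cells, against 116, 125 and 119 in DMSO cells. These groups were apart (log2 -0.26 ± 0.11, limma adjusted p = 0.132). After the same rescaling, this band was called at -0.45 and the band from 100 to 200 kb upstream at -0.45, while the 4 downstream calls were kept.

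Set directly against dTAG, dTAG+I-BET gave no call anywhere at DCBLD2. With limma, 0 of 98 bins passed, as did 0.0% of the 1960 bins of all viewpoints; edgeR called 0 of 98 and 0.0% as well, and 6 DCBLD2 bins had an unadjusted p under 0.05, all of them higher, against 6.22% over all viewpoints. The largest log2 ratios were 0.71 at 390 to 400 kb, 0.56 at 260 to 270 kb and 0.55 at 220 to 230 kb downstream. The lowest were -0.80 at 390 to 400 kb, -0.56 at 420 to 430 kb and -0.39 at 480 to 490 kb upstream, where a bin had 3 to 34 interactions in a library. All 13 sides, bands and gene body were above 0 and none was called (0.0% of 250 at all viewpoints), with a median of 0.15 against 0.13 over all viewpoints, but after rescaling 5 of the 13 were above 0, with medians of -0.02 and 0.03. The band from 50 to 100 kb downstream differed by 0.16 (95% interval -0.08 to 0.41), and that from 50 to 100 kb upstream by 0.34 (-0.03 to 0.71), in which dTAG replicate 3 was the lowest library. In 12 bins all dTAG+I-BET libraries exceeded all dTAG libraries, 10 of them downstream, and in 0 they were all lower; over all viewpoints 10.6% of bins were apart with dTAG+I-BET higher and 3.21% with it lower.

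All 7 protein-coding promoters within 500 kb lie downstream, and none was called with limma in any comparison, higher or lower. Of the 174 neighbouring promoters at all viewpoints, 1.15% were called higher in dTAG and 0.575% in dTAG+I-BET, each against DMSO. In dTAG+I-BET against dTAG 0.0% were called in either direction. The shares called lower against DMSO are not given here. The window around the CLDND1 start, 379 kb away, had 490.0, 483 and 440 signal per kb in dTAG+I-BET cells, 425, 454 and 405 in dTAG cells, and 356, 294 and 353 in DMSO cells. All libraries with dTAG ligand were above all DMSO libraries. The log2 ratio was 0.50 in dTAG+I-BET (95% interval 0.14 to 0.86, limma adjusted p = 0.286) and 0.36 in dTAG (0.00 to 0.72, limma adjusted p = 0.421), each against DMSO.

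The GPR15 window, which overlaps that of CLDND1, had 521, 468 and 466 per kb in dTAG+I-BET cells, 497, 465 and 306 in dTAG cells, and 349, 305 and 324 in DMSO cells. dTAG replicate 3 lay within the DMSO range, and the other libraries with dTAG ligand above it. The CPOX window, 308 kb away, had 496, 543 and 599 in dTAG+I-BET cells, 500.1, 523 and 534 in dTAG cells, and 328, 405 and 540.1 in DMSO cells, where DMSO replicate 3 overlapped with both other groups. The annotated protein-coding gene ENSG00000285635, whose window overlaps that of CPOX, had 481, 562 and 576 in dTAG+I-BET cells, 421, 525 and 331 in dTAG cells, and 398, 354 and 401 in DMSO cells. Its dTAG libraries overlapped with DMSO and its dTAG+I-BET libraries did not.

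The olfactory receptor genes OR5K1 and OR5K2, 438 and 404 kb away, had the thinnest counts, with 22 to 65 and 48 to 112 interactions in a library. OR5K1 had 115, 81.6 and 122 signal per kb in dTAG+I-BET cells, 133, 144 and 132 in dTAG cells, and 109, 75.2 and 65.3 in DMSO cells. The dTAG libraries were above all others there (log2 0.74 against DMSO, limma adjusted p = 0.202; edgeR called this 1 promoter). OR5K2 had 284, 214 and 255 in dTAG+I-BET cells, 198, 248 and 154 in dTAG cells, and 208, 144 and 145 in DMSO cells, with dTAG+I-BET libraries above all DMSO libraries. ST3GAL6, a sialyltransferase gene whose start is 138 kb away, had 212, 261 and 301 in dTAG+I-BET cells, 234, 191 and 183 in dTAG cells, and 225, 215 and 299.7 in DMSO cells, which overlapped in every comparison.

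Over the 7 promoters, the log2 ratio against DMSO had a median of 0.49 in dTAG+I-BET and 0.32 in dTAG, beside 0.01 and -0.05 over all neighbouring promoters. At an unadjusted p under 0.05, 4 passed in dTAG+I-BET against DMSO, 2 in dTAG against DMSO and 0 in dTAG+I-BET against dTAG, where 11.5%, 11.5% and 7.47% of the 174 did. edgeR called 4, 1 and 0 of the 7 in the same order, and 5.75%, 5.17% and 0.0% of the 174. Windows that overlap share fragments and are not separate measurements.

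The changes at DCBLD2 were also set against those of the other 19 viewpoints at the same side and distance in the same libraries. In dTAG against DMSO, the band from 50 to 100 kb downstream exceeded the mean of the others by 0.56 ± 0.11 on the log2 scale (limma adjusted p = 0.0125), and it was the only 1 of 12 DCBLD2 sides and bands called, against 3.33% of 240 called higher at all viewpoints. The call was lost without DMSO replicate 1 or DMSO replicate 2. The high upstream block from 50 to 100 kb differed from the others by 0.01 (95% interval -0.14 to 0.17). In dTAG+I-BET against DMSO, 4 of 12 were called, all higher, against 10.4% of 240 called higher at all viewpoints: 0.56 from 50 to 100 kb (limma adjusted p = 0.00756), 0.31 from 200 to 350 kb (0.00603), 0.41 from 350 to 500 kb (0.00377) and 0.22 for the whole side (0.0279), each downstream. The whole side includes the bands, so that its call is not separate from theirs. In dTAG+I-BET against dTAG, 0 of 12 were called with limma, 3 had an unadjusted p under 0.05, and at all viewpoints 0.0% of 240 were called and 8.75% had such a p.

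**Figure D4:**
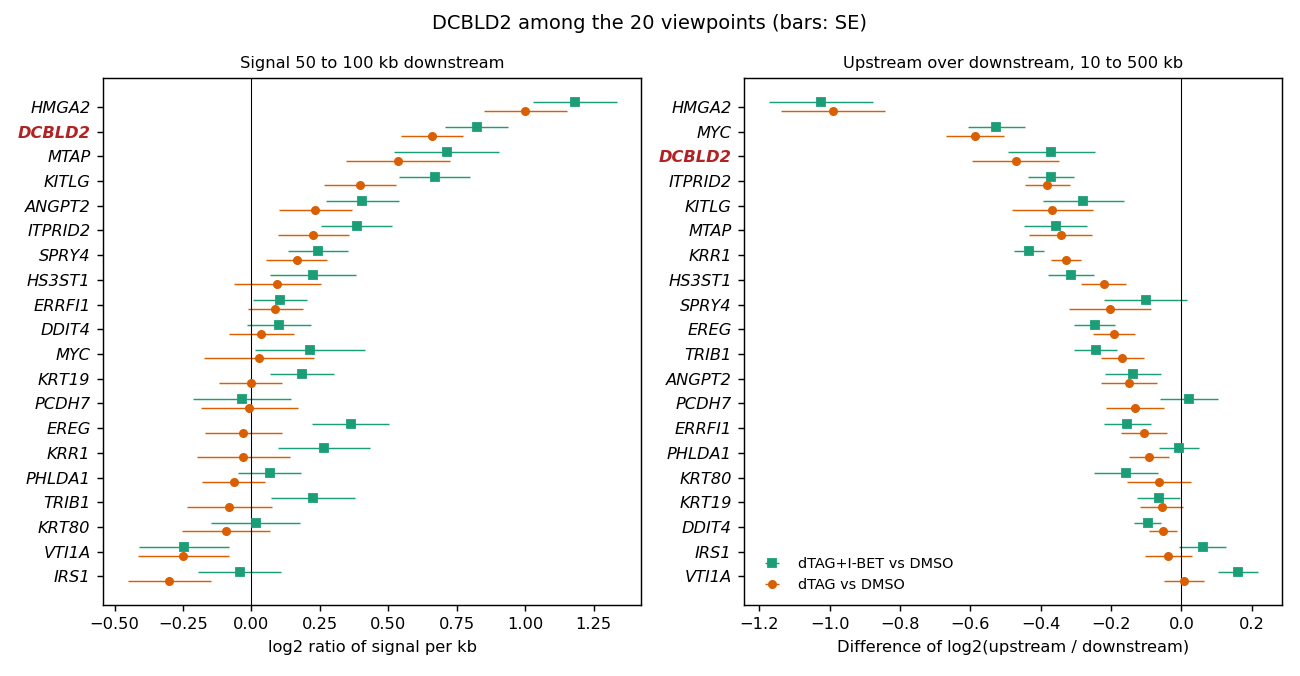
Change against DMSO at the 20 viewpoints (y axis, ordered by dTAG against DMSO) in signal from 50 to 100 kb downstream (left, log2 ratio) and in upstream over downstream signal from 10 to 500 kb (right, difference of log2 ratios); squares are dTAG+I-BET, circles dTAG, bars SE. DCBLD2 (red) has 0.82 and 0.66 on the left, below HMGA2 alone, and -0.37 and -0.47 on the right.

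Among the 20 viewpoints, the DCBLD2 change from 50 to 100 kb downstream ranked 2 in dTAG against DMSO. It followed HMGA2, an architectural chromatin protein gene, at log2 1.00. Among the 10 genes long enough to test, the DCBLD2 gene body ranked 2 as well. Of the other viewpoints whose genes act in growth factor or receptor signaling, KITLG, the gene of stem cell factor, had 0.40 from 50 to 100 kb downstream, ANGPT2, the gene of a ligand of the TIE2 receptor, 0.23, and the feedback inhibitor genes SPRY4 and ERRFI1 0.17 and 0.09. EREG, which encodes a ligand of the EGF receptor, had -0.03, and IRS1, an adaptor of the insulin receptor, -0.30, so that these genes did not form a range of their own among the 20.

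The shape of the whole change was compared by the Pearson r of the log2 ratio of dTAG over DMSO across the 98 oriented bins, after the mean of all viewpoints at each distance was subtracted. The viewpoints most like DCBLD2 were HS3ST1 (r = 0.25), HMGA2 (0.24) and KITLG (0.17), which are weak correlations across bins of the same 6 libraries. In the gene body, the log2 ratio was 0.35 at DCBLD2 (not called, as given above), 0.79 at HMGA2, 0.18 at KITLG (limma adjusted p = 0.482) and -0.01 at HS3ST1.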

How the data were processed

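The authors digested chromatin of HCT-116 MED14-dTAG cells with DpnII, captured 20 promoters and counted interactions per fragment on hg38 with CapCruncher (version 1); Bowtie2 2.3.5 and Samtools 1.9 are named in the study. The deposited values are signal, interactions scaled by the authors to about equal totals within the chromosome of the viewpoint, per viewpoint and library. All 102057804 values were whole multiples of the smallest value of their column (tolerance 0.01), so that interactions were recovered. Fragments were assigned by midpoint. Sequence within 10 kb was left out of tests; a minimum of 2 per kb removed no DCBLD2 bin.

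log2(signal per kb + 1) of all 9 libraries was fitted with limma 3.58.1 (R 4.3.3), with a trend of variance for bins, and Benjamini-Hochberg adjustment over all rows of a kind at the 20 viewpoints. The pseudocount understates changes of very low values. edgeR 4.0.16 (quasi-likelihood) on recovered interactions was an alternative, as were other scalings, filters, bin and window sizes, fits of 2 groups, and leaving out each library. Exact permutation of 3 against 3 libraries cannot go below p = 0.1 and is not quoted. The functions were tested on simulated data. Promoter sequence is from RefSeq, other sequence from hg38, and genes from GENCODE.

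Members and lists were chosen with earlier results of these data known. Bins named are mostly those called, the 3 highest and 3 lowest of a comparison, and the 5 highest in DMSO. Not every bin of these lists is given with its position. The replicate number was left out of the main fits, and fits with it as a block are given below. Tables were made with pandas 2.3.3 and scipy 1.17.1 under Python 3.11.15.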

Additional observations from a re-analysis of the deposited data

How the results depend on the processing

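Alternatives were compared by calls at an adjusted p under 0.05 and by the sign of the log2 ratio. Of 1624 alternative values of 95 single bins, bands, sites and promoters, 35 had the other sign, none of them called, 99 lost a call and 38 gained one. In dTAG against DMSO, the 2 called bins became 1 with only the 2 groups compared, 1 with no variance trend, 1 after the mean of the other viewpoints at the same distance was subtracted, 4 with edgeR without TMM, 4 in bins of 5 kb, 4 in bins of 25 kb and 7 after rescaling to equal totals from 10 to 1000 kb. The 13 called bins of dTAG+I-BET against DMSO became 4 with no variance trend, 7 after the mean of the other viewpoints was subtracted and 7 in bins of 25 kb. Of the sides, bands and gene body, 7 were called in dTAG against DMSO after rescaling, against 1, and 7 in dTAG+I-BET against DMSO with only those 2 groups compared, against 4. That 2-group fit also called 1 cohesin-lost site. edgeR called 1 promoter in dTAG and 4 in dTAG+I-BET, each against DMSO, and windows of 10 kb called 1 in dTAG+I-BET. Against the other viewpoints, rescaling called 2 bands in dTAG, 1 in each direction, in place of 1. The cause of these changes was not tested. Over all bins, same-numbered replicates of different groups deviated together with a median r of 0.0067 over 9 pairs (-0.057 to 0.232). The number was therefore not taken as a pairing in the main fits. Between dTAG and DMSO libraries alone, same-numbered pairs had r of 0.038, 0.104 and 0.232, and different-numbered pairs -0.219 to 0.151, so that a pairing of these groups is not excluded. With the block, the upstream over downstream ratio in dTAG against DMSO was -0.47 ± 0.096 (SE, limma adjusted p = 0.00666). In the DCBLD2 bins alone, the 3 same-numbered pairs of dTAG+I-BET and DMSO libraries had r of 0.135, 0.200 and 0.285, and the 9 pairs of all comparisons -0.158 to 0.285. With the replicate number as a block, 4 bins were called in dTAG against DMSO in place of 2, and 2 bands against the other viewpoints in place of 1. In dTAG+I-BET against DMSO the block gave 13 bins, as without it, and 5 sides, bands and gene body in place of 4; the added band was 200 to 350 kb downstream.

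Without 1 library at a time, 1 to 8 bins were called in dTAG against DMSO and 3 to 20 in dTAG+I-BET against DMSO, 1 to 6 and 1 to 9 sides, bands and gene body, 0 to 2 and 3 to 6 bands against the other viewpoints, and 0 to 1 cohesin-lost sites in dTAG+I-BET against DMSO. The upstream over downstream ratio ranged over -0.58 to -0.34 in dTAG against DMSO, -0.48 to -0.30 in dTAG+I-BET against DMSO, and -0.033 to 0.19 in dTAG+I-BET against dTAG.

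Uncalled values changed sign as follows. After rescaling, the log2 ratio of dTAG+I-BET over dTAG was -0.065, -0.0047 and -0.049 at 10 to 50, 50 to 100 and 100 to 200 kb downstream, -0.020 for the whole downstream side, -0.035 for the gene body, -0.10, -0.090 and -0.15 at 100 to 200, 200 to 350 and 350 to 500 kb upstream, -0.030 at CLDND1 and -0.10 at CPOX. That of dTAG+I-BET over DMSO was -0.0011 at 100 to 200 kb downstream, -0.15 and -0.025 at 10 to 50 and 50 to 100 kb upstream, -0.15 for the whole upstream side, -0.047 at the site 60.9 kb upstream and -0.13 at ST3GAL6. edgeR gave 0.042 for the LINC00973 site in dTAG over DMSO. Without 1 library, dTAG over DMSO ranged over -0.37 to 0.058, -0.32 to 0.062 and -0.19 to 0.0033 at 10 to 50, 50 to 100 and 350 to 500 kb upstream, -0.33 to 0.0048 for the whole upstream side, -0.30 to 0.094 and -0.18 to 0.17 at the sites 60.9 and 79.6 kb upstream, and -0.038 to 0.29 at ENSG00000285635. dTAG+I-BET over dTAG ranged over -0.014 to 0.41, -0.092 to 0.15 and -0.074 to 0.071 at 10 to 50, 100 to 200 and 350 to 500 kb upstream, and -0.77 to 0.25 in the bin at 480 to 490 kb. dTAG+I-BET over DMSO ranged over -0.015 to 0.12 and -0.17 to 0.0017 at 10 to 50 and 350 to 500 kb upstream, -0.031 to 0.10 for the whole upstream side and -0.052 to 0.21 at ST3GAL6. Depth limits the far upstream bins, with 3 to 34 interactions in a library.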
